A study of Brassica napus with 48 samples.

Results

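The genes described here are 200 genes of rapeseed (Brassica napus) whose transcript level went up in developing seeds between 7 and 14 days after flowering (DAF) in unshaded Lumen plots, and whose level at 14 DAF was lower in shaded Lumen plots. They were chosen from 101040 genes listed. Levels are in TPM (a gene's length-corrected share of a library's transcripts), normalized between libraries by the authors and rounded to whole numbers, and all differences are on the log2(TPM + 0.5) scale, which understates the change of genes at a few TPM. A gene had to have a mean of at least 5 TPM over the 24 Lumen libraries, a rise from 7 to 14 DAF of at least 1 in control (unshaded) libraries, a shaded-minus-control difference within 0.5 of 0 at 7 DAF, and a difference of -0.75 or below at 14 DAF, each averaged over both sowing dates. This held for 236 genes after 4 genes had been left out by the rule, and the 200 with the lowest shading difference at 14 DAF were kept.

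The 48 libraries formed 16 groups of 3, with a group for each genotype (the spring hybrids Lumen and Solar), source-sink (S–S) ratio (control or shaded), time (7 or 14 DAF) and sowing date, which was optimal or late. Plots either stood in full light or under black netting that removed 75% of it. The netting went up when the first flowers opened and stayed until 15 DAF, so both sampling times fell within the shading. Seeds were pooled from 25 siliques on each of 5 plants per field plot, and p-values rest on the spread between these samples. The fit took a common spread per gene over all 16 groups, so p-values do not measure the spread of the compared groups alone. Many of the genes described here were nearly silent at 7 DAF, where their libraries differed little. For such genes the common spread can be smaller than that at 14 DAF, and p-values at 14 DAF can be too low. In a bulk seed sample, fewer cells of a type and less RNA per cell cannot be told apart.

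Between these times a rapeseed embryo leaves the stage of pattern formation and growth and begins to fill. The embryo then draws sucrose from the seed coat and endosperm, and transcription factors of the maturation programme switch on the genes that turn it into oil, protein and other reserves. Shading around flowering lowers the supply of assimilates from leaves and silique walls while the seeds are being set.

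The summed normalized TPM ran from 908993 to 1219379 per library. TPM carry no read numbers, so the depth of single libraries is unknown from these values. Genotype labels were checked against 47 genes with at least 5 TPM in each late-sown Solar library at 14 DAF and 0 in each late-sown Lumen one, and 51 genes with the reverse. By the share of these transcripts that were of the Solar kind, 9 libraries labelled Solar were under 50%. Of these, 6 were all the optimal-sown ones at 7 DAF, 2 were optimal-sown control libraries at 14 DAF, and 1 was a late-sown shaded library at 7 DAF. All 6 late-sown Solar libraries at 14 DAF had a share of 100%, which the choice of these genes fixes, and no library labelled Lumen exceeded 1.69%. Solar therefore stands below for libraries labelled Solar, and the late sowing date at 14 DAF is given first.

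The values that chose the members are given as a description. The shading difference at 14 DAF ran from -2.46 to -0.81 (median -1.04), that is from BnaC07g12850D down the list to BnaA03g42640D. The limit fell between BnaC06g13730D (-0.8063) and BnaA03g42640D (-0.8057) on the inside and BnaC09g50960D (-0.8054) and BnaAnng03960D (-0.8044) on the outside. The rise in control libraries ran from 1.18 to 8.87 (median 3.65) and the rise in shaded libraries had a median of 2.52. Many members were silent before: 38 were listed at 0 in all 12 Lumen libraries at 7 DAF, 89 had a mean under 1 TPM there and 44 had a mean of at least 5 TPM. In Lumen control libraries at 14 DAF the mean level ran from 9.0 to 6845 TPM with a median of 28.5 TPM. A further 805 genes met the limits on level, rise and 7 DAF shading without being members. They serve below as the other rising genes, and over all 1005 such genes the median shading difference at 14 DAF was -0.49, with 959 of them below 0.

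In Lumen the members' level was lower under shading mainly in the optimal sowing date. The mean log2 level over the 200 members was 3.71, 3.49 and 3.54 in the control libraries and 1.82, 0.82 and 2.13 in the shaded libraries of the optimal sowing date at 14 DAF, so the groups did not overlap. In the late sowing date it was 6.23, 5.50 and 5.34 in control and 6.14, 4.42 and 5.63 in shaded libraries, and these groups overlapped. The median member stood at 25.8% of its control level under shading in the optimal sowing date and at 88.7% in the late one. Taken gene by gene, the median shading difference was -1.90 in the optimal sowing date, with 199 of 200 members below 0, and -0.24 in the late sowing date, with 157 below 0. All shaded libraries lay below all control libraries for 143 members in the optimal sowing date and for 19 in the late one. Among 38251 genes that reached 5 TPM in 10% or more of the libraries, which include all members, this held for 8.51% and 2.6% of genes. These counts rest on the libraries that chose the members and carry no test.

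**Figure D1:**
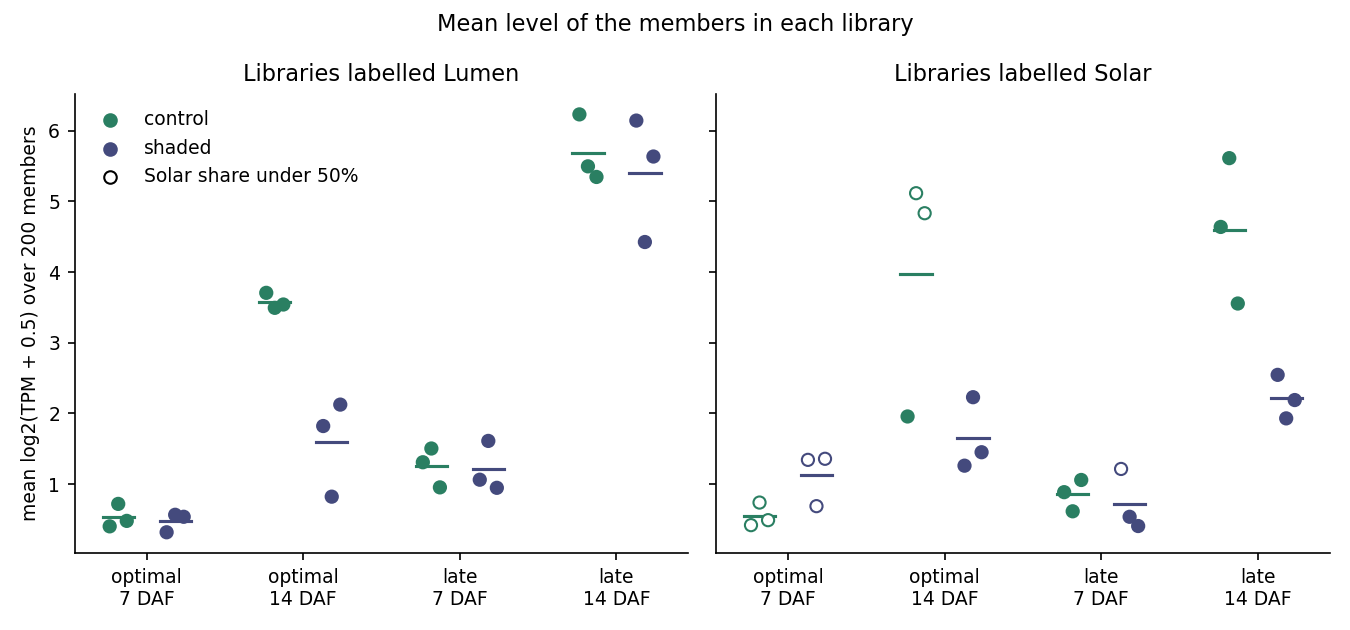
Mean log2(TPM + 0.5) over the 200 members (vertical axis) in each of the 48 libraries, by sowing date and time, with Lumen on the left and Solar on the right; points are libraries, bars are means of 3, and open points are libraries labelled Solar with a Solar share under 50%. Control and shaded Lumen libraries were apart at 14 DAF in the optimal sowing date (3.49 to 3.71 against 0.82 to 2.13) and overlapped in the late one, while in Solar the late-sown groups were apart.

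The difference between sowing dates in the shading response rests on the 14 DAF Lumen libraries that chose the members. The rule used its mean over sowing dates, which is independent of the difference only where libraries spread equally, and the late-sown ones spread more widely, so the values are a description. The shading difference was 1.54 higher in the late than in the optimal sowing date for the median of the 154 members tested, and the gap lay above 0 for 147 of them. No member and no gene was called (limma, adjusted p under 0.01, with 0% of 53810 genes called in either direction), and 56 members and 3373 genes had an unadjusted p under 0.05. The shading difference was lower in the optimal than in the late sowing date for 193 of 200 members. BnaAnng32150D, BnaC01g38490D and BnaC08g27780D were among the 7 exceptions. BnaC08g27780D, named after its values had been seen, held 18, 8 and 13 TPM in shaded and 8, 0 and 13 TPM in control plots of the optimal sowing date, and 0, 0 and 0 against 15, 9 and 15 TPM in the late one. In BnaC01g38490D the shaded libraries of the late sowing date held 5, 5 and 4 TPM against 11, 11 and 11 TPM in control, and in the optimal sowing date 4, 3 and 5 TPM against 14, 4 and 3 TPM. Here the late-sown groups were apart and the optimal-sown groups overlapped, the reverse of the usual member.

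**Figure D2:**
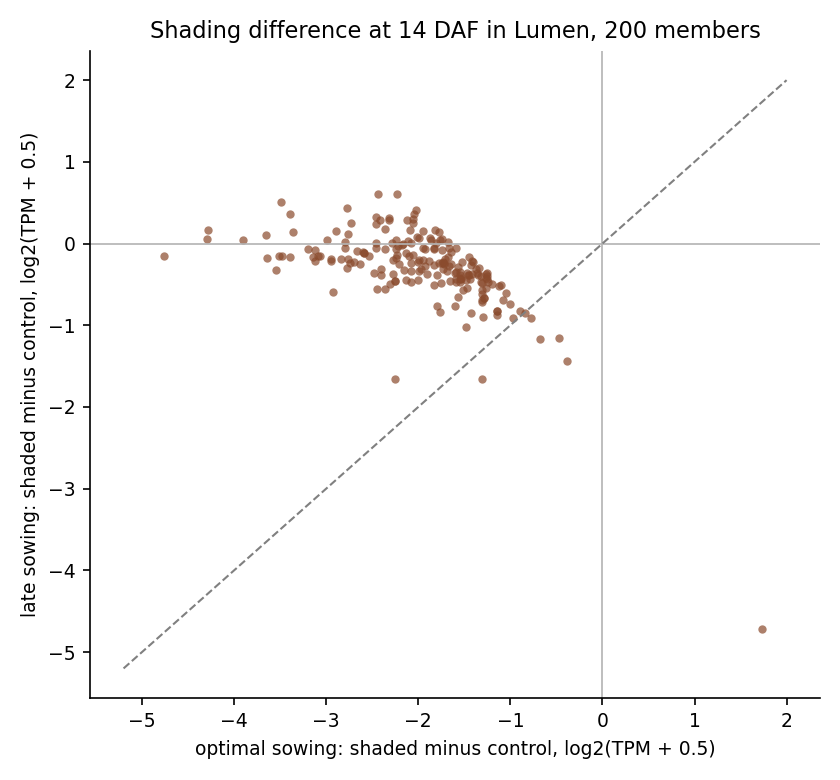
Shaded-minus-control difference at 14 DAF in Lumen on the log2(TPM + 0.5) scale for each of the 200 members, with the optimal sowing date on the horizontal and the late sowing date on the vertical axis; the dashed line marks equal differences. Of the points, 193 lie above the line, and the rule itself selected the mean of both axes.

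The 24 libraries labelled Solar took no part in the choice. In the late sowing date at 14 DAF the mean log2 level of the members was 4.64, 5.61 and 3.55 in control libraries and 2.55, 1.93 and 2.19 in shaded libraries. Each shaded library was below each control library. The members' summed level was 11381, 31249 and 5620 TPM in control and 3660, 2582 and 2431 TPM in shaded libraries, so control replicate 2 was the highest and control replicate 3 the nearest to the shaded plots. The median shading difference was -1.96 over the 200 members (quartiles -3.60 and -1.12), 194 members were below 0, and the median member stood at 19.8% of its control level. All shaded libraries lay below all control libraries for 134 members (67.0%), beside 7.07% of the 38251 genes with at least 5 TPM in 10% of libraries, and no member had all shaded libraries above all control libraries, beside 6.21%. Among the 805 other rising genes the median difference was -0.78 and the groups were apart in this direction for 332. These genes also rose less from 7 to 14 DAF in control plots here, by a median of 1.57 against 3.71 for members, so the sets are not matched on the rise.

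Single genes seldom passed the test. Of the 200 members, 154 reached 1 TPM in 47% or more of the 48 libraries and were tested, and the other 46 were not. Of those tested, 11 fell and none rose under shading (limma, adjusted p under 0.01), beside 0.18% of all 53810 genes tested that fell and 0.446% that rose, and 115 (74.7%) had an unadjusted p under 0.05, beside 14.2% of genes tested. The number called was 38 of 200 when genes with at least 5 TPM in 10% of libraries were tested instead, beside 0.471% of genes, and 0 when only the 24 Solar libraries set the spread. Control replicate 2 and shading replicate 3 each decided the count, which was 0 without either of them, and it was 1 without control replicate 1, 2 without shading replicate 2 and 29 without control replicate 3.

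**Figure D3:**
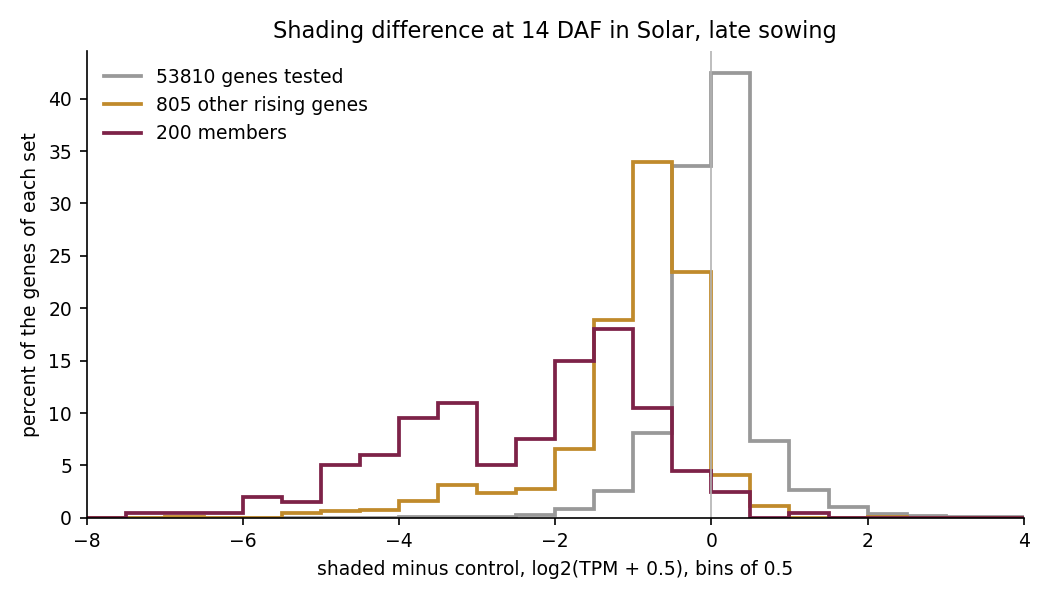
Share of genes (vertical axis, percent of each set) by shaded-minus-control difference at 14 DAF in Solar, late sowing date (horizontal axis, log2(TPM + 0.5), bins of 0.5), for the 200 members, the 805 other rising genes and the 53810 genes tested. The medians are -1.96, -0.78 and 0.

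The member with the lowest value in the rule, BnaC07g12850D, was also called in late-sown Solar. At 14 DAF in the late sowing date it stood at 139, 177 and 24 TPM in control and 4, 2 and 0 TPM in shaded Solar libraries, with a log2 difference of -5.57 (SE 0.90, limma adjusted p = 0.000597). In Lumen it held 54, 7 and 30 TPM in control and 0, 0 and 2 TPM in shaded libraries of the optimal sowing date, and 299, 129 and 135 against 280, 69 and 196 TPM in the late one. It was at 0 to 2 TPM in all libraries at 7 DAF. The gene has no annotation among the sources used here, and neither has BnaA01g27700D, which fell the most of the 11 called genes. BnaA01g27700D stood at 104, 670 and 28 TPM in late-sown Solar control libraries and 0, 1 and 0 TPM in shaded ones (log2 difference -7.45, SE 1.40, limma adjusted p = 0.00235). BnaC09g22900D (53, 302 and 17 against 0, 0 and 2 TPM, limma adjusted p = 0.00793) behaved likewise. In these 3 genes the groups did not overlap, and control replicate 2 was the highest library each time. The other called genes were BnaA10g22980D and BnaC08g23940D, described below, and, named after their values had been seen, BnaC06g30350D, BnaCnng65650D, BnaC05g35720D, BnaA09g42100D, BnaA01g34710D and BnaA02g02910D. BnaC06g30350D had higher shaded levels than the genes above, with 121, 184 and 82 TPM in control and 40, 37 and 25 TPM in shaded libraries.

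Of the 10 members lowest in the rule, BnaC07g12850D and BnaA01g27700D were the only ones called in late-sown Solar. BnaC03g31600D came second in the rule. It stood at 388, 1230 and 168 TPM in control and 17, 1 and 19 TPM in shaded late-sown Solar libraries (log2 difference -5.75, SE 1.49, limma adjusted p = 0.0323). BnaC01g22560D (118, 341 and 31 against 14, 2 and 7 TPM) and BnaAnng10440D (79, 167 and 27 against 14, 3 and 9 TPM) also had separate groups without passing the test. BnaCnng53450D (33, 97 and 18 against 1, 0 and 1 TPM) was not tested. BnaC03g00640D (14, 19 and 18 against 12, 6 and 3 TPM) and BnaA09g50800D (11, 16 and 8 against 7, 3 and 2 TPM) were separate by less. In late-sown Lumen BnaC03g00640D was also separate, at 26, 35 and 36 against 9, 7 and 15 TPM, unlike the others of these 10. None of the 10 has an annotated function here, although BnaA03g26710D has an Arabidopsis ortholog.

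Of the 5 members with the lowest Solar difference in the late sowing date, BnaA02g24080D (31, 726 and 19 TPM in control, 1, 0 and 0 TPM in shaded libraries) and BnaA06g03920D (47, 236 and 23 against 0, 0 and 4 TPM) were not tested, and BnaC04g30640D missed the threshold (limma adjusted p = 0.0231). At the other end 5 members had a difference above 0. BnaC01g38490D held 3, 4 and 6 TPM in control and 6, 18 and 12 TPM in shaded libraries (log2 difference 1.29, SE 0.62, limma adjusted p = 0.333), so its shaded libraries reached or passed the control ones. BnaC05g47250D (153, 71 and 107 against 93, 107 and 195 TPM) and BnaAnng32150D (16, 25 and 12 against 17, 14 and 23 TPM) overlapped between groups. BnaA03g05030D and BnaA03g05050D, close neighbours in the numbering, had identical values in every library (4, 5 and 6 against 11, 4 and 6 TPM), so reads of the pair cannot be assigned to either gene.

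The rise from 7 to 14 DAF was present in Solar control plots of the late sowing date. The trial had 24 field plots, each sampled at both times, and the fit took the libraries of both times as independent samples. Of the 154 members tested, 124 rose and none fell (limma, adjusted p under 0.01), beside 5.41% of all genes tested that rose and 4.55% that fell. All 14 DAF libraries lay above all 7 DAF libraries for 183 of 200 members (91.5%). This held for 79.4% of other rising genes and 17.4% of genes with at least 5 TPM in 10% of libraries. The members' median rise was 3.71, beside 1.57 for other rising genes. In shaded plots of the same sowing date the libraries of the times were apart for 84 members (42.0%). This share was near the 41.7% of other rising genes, beside 12.4% of genes. The members' median rise was 1.41 in these plots, beside 0.93 for other rising genes. In Lumen the members' median rise was 2.87 in control and 0.94 in shaded plots of the optimal sowing date, and 4.38 and 4.22 in the late one. In Lumen a smaller mean rise under shading follows from the rule. The change of the shading difference between 7 and 14 DAF in late-sown Solar had a median of -1.37 over the 154 members, with 135 below 0. None of them passed the test (limma, adjusted p under 0.01, beside 0.00186% of genes called lower and 0.00743% called higher), and 67 (43.5%) had an unadjusted p under 0.05, beside 10.1% of genes.

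At 7 DAF the median difference between shaded and control plots of late-sown Solar was 0 over the 200 members. The 2 members called lower were BnaA03g05030D and BnaA03g05050D, whose shared values were 2, 1 and 4 TPM in control and 1, 0 and 0 TPM in shaded libraries (log2 difference -1.83, SE 0.36, limma adjusted p = 0.00687), beside 0.11% of genes called lower and 0.23% called higher. At so few TPM a step of 1 from rounding is a large part of the value. With 1 in place of 0.5 added to the TPM, 0 members were called. Shading replicate 1 of this group had a Solar share of 19.9%, and 5 members were called without the libraries under 50%.

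The optimal sowing date of Solar gave the same direction with libraries whose labels are in doubt. At 14 DAF the mean log2 level was 1.96, 5.12 and 4.83 in control libraries, with Solar shares of 74.7, 10.9 and 41.3%, and 1.26, 2.23 and 1.45 in shaded libraries, with shares of 99.7, 68.1 and 99.6%. The control library with the highest Solar share was thus at the level of the shaded libraries, and the groups overlapped. The median difference was -2.22, with 196 of 200 members below 0. The groups were apart for 58 members (29.0%), beside 33.0% of other rising genes and 8.85% of genes. Of 154 members, 9 fell and none rose (limma, adjusted p under 0.01, beside 0.143% of genes that fell and 0.158% that rose), 132 (85.7%) had an unadjusted p under 0.05, beside 19.3% of genes, and 5 fell with the replicate number as a block. The sulfotransferase gene BnaC06g34990D, BnaC07g12850D and BnaA10g22980D were among the 9. Leaving out the libraries under a Solar share of 50% left 1 control library, with a share of 74.7%, against 3 shaded ones. The lone library was then assumed to vary like those of other groups, 0 members were called, and the median over those tested was -0.51. Without control replicate 1, 83 were called, and without shading replicate 2, 24. Each of control replicates 2 and 3 and shading replicates 1 and 3, left out in turn, brought the count to 0. The shading difference went down from 7 to 14 DAF in 18 members of this sowing date and up in none (limma, adjusted p under 0.01, beside 0.453% of genes called lower and 0.388% called higher), a count that ran from 0 to 89 as each library was left out. The part of the Lumen-type transcripts in these differences was not tested. Both sowing dates of Solar had a difference below 0 in 192 of 200 members.

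In optimal-sown Solar at 7 DAF the median member was 0.53 higher in shaded than in control libraries, beside 0.45 for other rising genes. The members' median level was 0.667 TPM in control libraries, where a step of 1 from rounding is a large part of the value. The mean log2 level was 0.42, 0.74 and 0.49 in control and 1.34, 0.69 and 1.36 in shaded libraries, and all shaded libraries lay above all control libraries for 14 of 200 members, beside 4.23% of genes. No member passed the test (limma, adjusted p under 0.01, beside 0.0167% of genes called higher and 0.0929% called lower), 43 of 154 (27.9%) had an unadjusted p under 0.05, beside 14.1% of genes, and all 6 libraries had a Solar share under 50%. In control plots of this sowing date 125 of 154 members rose from 7 to 14 DAF and none fell (limma, adjusted p under 0.01, beside 4.53% of genes that rose and 4.12% that fell). The libraries of the times were apart for 132 of 200 members (66.0%), beside 64.2% of other rising genes and 14.8% of genes.

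Late sowing went with higher levels of the members in Lumen. At 14 DAF, over control and shaded plots together, 125 of the 154 members tested were higher in the late than in the optimal sowing date and none was lower (limma, adjusted p under 0.01), beside 7.1% of genes called higher and 8.12% called lower. The median difference was 2.11. The rule favoured this direction in part, since the limit of 5 TPM was set on the mean over both sowing dates and 109 members were under it in the optimal-sown Lumen libraries alone. Of the 91 members that reached it there, all were tested and 70 were higher with late sowing. In the trial the main plots carried the sowing dates, subplots the S–S ratio and sub-sub-plots the genotypes. The fit had no term for main plots and took control and shaded libraries as independent samples. The p-values for sowing date therefore do not measure the spread between main plots. The sowing dates were apart in control plots for 176 members (88.0%), beside 63.2% of other rising genes and 15.6% of genes. In shaded plots they were apart for 182 members (91.0%), beside 73.7% of other rising genes and 14.2% of genes. The other rising genes met the same limit on level. Summed over the members, late-sown Lumen seeds held 67684, 24870 and 20167 TPM in control and 73203, 10630 and 35496 TPM in shaded libraries, where optimal-sown ones held 5560, 5019 and 4891 and 1767, 855 and 1948 TPM. The libraries numbered 1 of both late-sown groups were far above the rest, and without them 102 members were called. Scaling each library to the same sum moved the median of all genes by -0.14 and gave 119 called members. At 7 DAF 36 members were higher with late sowing and none lower (limma, adjusted p under 0.01, beside 4.29% of genes called higher and 3.91% called lower). The rise from 7 to 14 DAF in control plots did not pass the test of a difference between sowing dates in any member (limma, beside 0.171% of genes called higher and 0.19% called lower), and 33 (21.4%) had an unadjusted p under 0.05, beside 19.5% of genes. In control plots of Solar at 14 DAF all late-sown libraries lay above all optimal-sown ones for 6 of 200 members. This held for 10.1% of other rising genes and 9.04% of genes. The members' median difference there was 0.68, with 167 members above 0 and 33 below. Optimal-sown libraries of these plots had Solar shares of 74.7, 10.9 and 41.3%, and their part in the difference was not tested. In shaded Solar plots at 14 DAF the sowing dates were apart in this direction for 34 members (17%). The share was 23.1% of other rising genes and 7.9% of genes.

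The largest of these sowing differences belonged to BnaC04g30640D, BnaAnng33170D and BnaA01g04810D. BnaC04g30640D, without annotation here, was the most abundant member. It stood at 27230, 7591 and 5354 TPM in control and 30913, 2150 and 12120 TPM in shaded late-sown Lumen libraries at 14 DAF, which was between 20.2 and 42.2% of the members' sum, and at 115, 493 and 286 against 30, 3 and 102 TPM in the optimal sowing date. It was higher with late sowing by 7.03 on the log2 scale (SE 1.03, limma adjusted p = 7.69e-06). In late-sown Solar it held 1142, 10624 and 681 TPM in control and 36, 30 and 32 TPM in shaded libraries. The groups were far apart there while the spread among control plots was wide. BnaAnng33170D went from 1, 11 and 7 TPM to 1214, 293 and 184 TPM between the sowing dates in control plots (6.95, SE 0.87, limma adjusted p = 8.70e-07). BnaA01g04810D carries a Tapetum determinant 1 domain, named after a small secreted protein of the Arabidopsis anther. It went from 32, 74 and 46 TPM to 5610, 1554 and 816 TPM (6.55, SE 0.77, limma adjusted p = 4.36e-07). The 5 most abundant members in Lumen control plots at 14 DAF were BnaC04g30640D, BnaA01g04810D, BnaC03g23230D, BnaC03g31600D and BnaA02g24080D, of which the last was not tested and the other 4 were all higher with late sowing. BnaC03g23230D differed in being expressed early, with 6 to 33 TPM in all Lumen libraries at 7 DAF.

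Only 21 of the 200 members had a domain or an Arabidopsis ortholog in the annotation used, which covers 5779 genes, so what most members encode is not given here. The annotated regulator of reserve synthesis among them was BnaA07g16350D. Its Arabidopsis ortholog WRINKLED1 (WRI1) is an AP2/ERF transcription factor that switches on glycolytic and fatty acid synthesis genes in the filling embryo. In Lumen at 14 DAF it stood at 5, 7 and 8 TPM in control and 2, 1 and 1 TPM in shaded libraries of the optimal sowing date, and at 151, 56 and 43 against 119, 21 and 94 TPM in the late one. Control and shaded plots were apart only in the optimal sowing date. In late-sown Solar it held 17, 66 and 5 TPM in control and 1, 1 and 2 TPM in shaded libraries, which did not overlap but missed the threshold (log2 difference -3.38, SE 0.98, limma adjusted p = 0.0574). With late sowing it was higher in Lumen by 4.24 (SE 0.69), a direction that the rule favoured. Its optimal-sown Lumen libraries held 0 to 8 TPM, and it met the limit of 5 TPM on the mean only through the late-sown ones. The annotated copies BnaA09g34250D and BnaC08g25150D were not members, with shading differences of -0.62 and -0.41 in Lumen, and in late-sown Solar they were also lower in each shaded library (2 to 3 against 6 to 46 TPM, and 1 to 2 against 3 to 17 TPM).

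BnaC01g00680D is the ortholog of MIPS1, which makes inositol phosphate from glucose 6-phosphate and so feeds phytate and raffinose-type sugars. It held 11, 23 and 21 TPM in control and 4, 2 and 4 TPM in shaded Lumen libraries of the optimal sowing date, and 40, 146 and 18 against 3, 3 and 6 TPM in late-sown Solar. Both pairs of groups were apart, and the Solar difference of -3.48 (SE 0.89) had a limma adjusted p of 0.0294. BnaC06g34990D, the ortholog of the sulfotransferase SOT18 that completes the glucosinolate core, held 13, 17 and 12 against 5, 3 and 5 TPM in optimal-sown Lumen. In Solar it held 16, 23 and 9 against 5, 4 and 2 TPM with late sowing (log2 difference -1.97, SE 0.48, limma adjusted p = 0.0235). With optimal sowing it held 3, 27 and 28 against 1, 4 and 2 TPM, where it was called lower (-2.45, SE 0.48, limma adjusted p = 0.00726) although the groups overlapped at 3 and 4 TPM.

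Among annotated members, 2 were called lower under shading in late-sown Solar at 14 DAF. BnaA10g22980D carries a VQ motif, found in small partners of WRKY transcription factors. It held 42, 74 and 20 TPM in control and 9, 4 and 2 TPM in shaded libraries (log2 difference -3.08, SE 0.65, limma adjusted p = 0.00658), and in optimal-sown Lumen 22, 22 and 21 against 3, 1 and 4 TPM. Its control plots in Lumen were nearly equal, and the shaded ones were far below them. BnaC08g23940D is the ortholog of BIC1, an inhibitor of the blue-light receptors called cryptochromes that is itself induced by light in Arabidopsis. It held 19, 21 and 10 TPM in control and 3, 3 and 2 TPM in shaded libraries of late-sown Solar (-2.39, SE 0.49, limma adjusted p = 0.00546), and 8, 11 and 5 against 3, 2 and 2 TPM in optimal-sown Lumen. In late-sown Lumen its groups overlapped, with 31, 28 and 25 against 33, 14 and 19 TPM. The other annotated copy, BnaA09g33150D, had a shading difference of -0.74 in Lumen and lay just outside the rule.

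**Figure D4:**
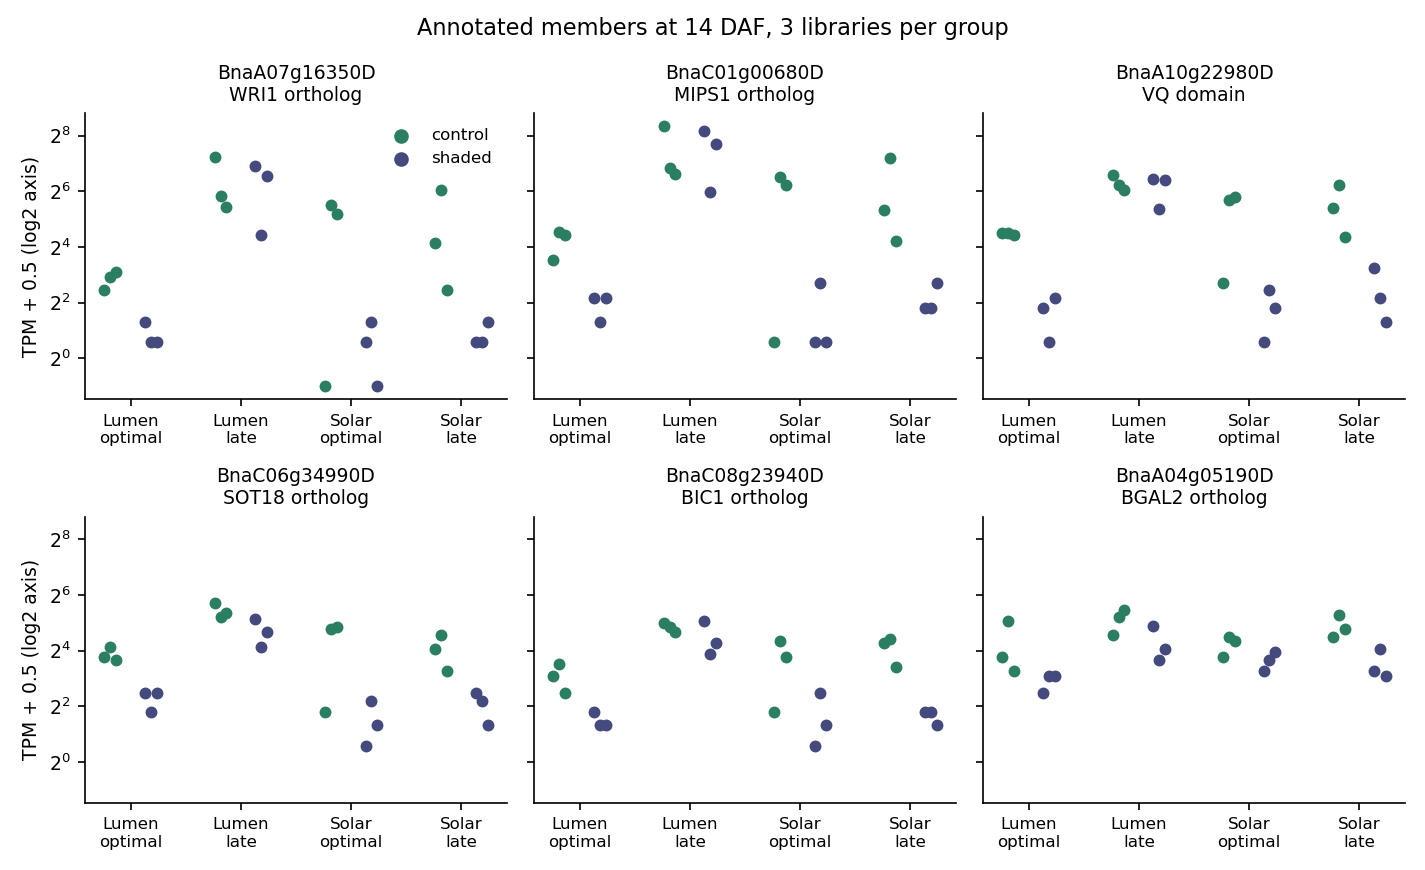
Level of 6 annotated members at 14 DAF in every library (vertical axis, TPM + 0.5 on a log2 axis) by genotype and sowing date, control beside shaded, 3 libraries per group. Shaded libraries were at 1 to 2 TPM for BnaA07g16350D in late-sown Solar, where control libraries held 5 to 66 TPM, and the groups of late-sown Lumen overlapped in the same gene.

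The cell wall enzyme beta-galactosidase BGAL2 had a pair of neighbouring copies among the members. BnaA04g05190D held 22, 38 and 27 against 9, 16 and 8 TPM in late-sown Solar (log2 difference -1.39, SE 0.55, limma adjusted p = 0.201), and in optimal-sown Lumen 13, 33 and 9 against 5, 8 and 8 TPM. Its neighbour BnaA04g05180D held 26, 45 and 26 against 18, 15 and 10 TPM in late-sown Solar. Neither pair of Solar groups overlapped. Of the kinase genes, BnaC06g36670D (ortholog of the calcium-dependent protein kinase CPK29) held 21, 27 and 11 against 9, 8 and 8 TPM (limma adjusted p = 0.162). BnaA01g08850D, with a protein kinase domain, held 115, 130 and 53 against 37, 32 and 32 TPM (limma adjusted p = 0.0606). Both had all shaded libraries below all control libraries without passing the test.

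The remaining annotated members named here were silent or nearly silent at 7 DAF and most were not tested because of the filter on low values. BnaA07g21350D is the ortholog of SOB3, an AT-hook protein that restrains hypocotyl growth in light-grown Arabidopsis seedlings. It was at 0 in all 24 libraries at 7 DAF, and held 3, 7 and 6 against 1, 0 and 0 TPM in optimal-sown Lumen and 10, 36 and 3 against 1, 0 and 1 TPM in late-sown Solar. BnaC03g09620D, with a RIN4-type domain, held 31, 38 and 11 against 3, 1 and 1 TPM there. The GDSL lipase gene BnaA07g23590D (4, 16 and 1 against 0, 0 and 1 TPM), the basic leucine zipper gene BnaA10g23610D (3, 20 and 2 against 1, 0 and 0 TPM), the RING-type gene BnaA10g26740D (8, 41 and 4 against 1, 3 and 0 TPM) and the FAD-linked oxidase gene BnaA01g10710D (8, 24 and 2 against 0, 0 and 0 TPM) were each highest in control replicate 2 of late-sown Solar. Of these 4 genes, the lipase gene had groups that met at 1 TPM, and the groups of the others were apart. BnaA03g26710D, with an ortholog of no role given here, held more, at 147, 432 and 48 against 9, 1 and 9 TPM (log2 difference -4.83, SE 1.28, limma adjusted p = 0.0375).

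The members' level under shading differed by how early they were expressed. In late-sown Solar at 14 DAF, the 38 members at 0 in Lumen at 7 DAF had a median of 17.2 TPM without and 0.333 TPM with shading, and the median member of this kind stood at 1.99% of its control level. The 44 members with at least 5 TPM in Lumen at 7 DAF had medians of 64.5 and 27.8 TPM, and the median member stood at 44.3%. The 118 members in between stood at 17.6%. All shaded libraries were below all control libraries for 31 of 38, 26 of 44 and 77 of 118. These classes were formed after the values had been seen and carry no test, and rounding to whole TPM hides what remains of the first class under shading. The percentages are also tied to the level at 7 DAF that formed the classes. A member without a rise would stay near 0 in the first class and near its earlier level in the early one. How much of the rise was lost in each class is therefore not shown.

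Members moved together from library to library. Across the 24 libraries labelled Solar, Pearson's r of a member with the mean of the other members had a median of 0.91, and it exceeded 0.8 for 167 of 200. Within the 12 Solar libraries at 14 DAF the median was 0.92. These values share libraries and the contrast of groups, and are a description. They were not computed for other genes, so they are not shown to be particular to the members. By their identifiers, 106 members (53.0%) lie in the A subgenome and 92 (46.0%) in the C subgenome, where the shares of the genes tested are 47.1 and 52.6%. Besides the BGAL2 pair and the pair with identical values, 4 pairs of members were neighbours in the numbering, of which BnaC05g06920D and BnaC05g06930D also had identical values.

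Few other genes of seed filling could be examined. The list of fatty acid and triacylglycerol synthesis genes had 25 annotated copies tested, of which BnaA07g16350D was the only member. None was called under shading in late-sown Solar at 14 DAF, 17 of 25 lay below 0, and the median was -0.17 beside 0 over all genes tested. With late sowing in Lumen 12 of the 25 were higher and none lower (limma, adjusted p under 0.01), beside 7.1% of genes called higher and 8.12% called lower. The 25 include BnaA07g16350D and its annotated copies. Of 9 seed coat flavonoid genes, none a member, none was called under shading in late-sown Solar and all 9 lay below 0 (median -1.03). Of these genes 6 of 9 rose from 7 to 14 DAF in late-sown Solar control plots, beside 5.41% of genes tested. With late sowing 7 of 9 were higher in Lumen, beside 7.1% of genes tested. The lists of maturation regulators, of seed coat mucilage, and of sugar transport and starch hold 16, 17 and 14 Arabidopsis genes. Most of these had no annotated copy and were not examined. Of the 5, 4 and 5 copies tested, none was called under shading in late-sown Solar, with medians of -0.37, -0.43 and -0.08. The oil body protein gene tested, BnaC08g03140D, was not called there either (log2 difference -0.53, at 0 to 4 TPM). In Lumen its shading difference at 14 DAF was 0.07. Storage protein genes had no copy in the annotation used, so whether they belong with the members was not analysed here.

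Markers of other tissues were set beside the members at 14 DAF in late-sown Solar. The summed level of 3 fruit wall genes was 59 to 76 TPM in control and 55 to 65 TPM in shaded libraries, that of 7 photosynthesis genes 313 to 336 and 264 to 287 TPM, and that of 4 cell cycle genes 27 to 37 and 27 to 42 TPM. The photosynthesis genes did not overlap between the groups there, and in optimal-sown Lumen they ran from 300 to 437 TPM in control and 386 to 658 TPM in shaded libraries. Of the endosperm list, 1 gene was annotated, BnaA07g23350D, the ortholog of the sucrose transporter SUC5. It was at 0 in all 3 late-sown Solar control libraries and at 5 to 17 TPM in shaded ones, and rose under shading (log2 difference 4.10, a size that depends on the value of 0.5 added, SE 0.73, limma adjusted p = 0.0014). In optimal-sown Lumen at 14 DAF it was at 0 to 1 TPM in control and 3 to 8 TPM in shaded libraries. It was also higher under shading at 7 DAF, with 1 to 2 TPM in control and 10 to 35 TPM in shaded late-sown Solar libraries. In optimal-sown Lumen at 7 DAF it held 1 to 2 against 14 to 18 TPM. At 14 DAF its direction in these groups was opposite to that of the members. The part of tissue proportions in the members' levels was not tested.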

How the data were processed

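RNA from rapeseed seeds was measured in 48 libraries from a split-split-plot field trial with 3 replicates. Transcript levels had been quantified by the authors with kallisto 0.46 and normalized in sleuth, and the deposited score of a gene is its normalized TPM rounded to whole numbers. The reference was the Ensembl Plants rapeseed transcriptome, with 101040 transcripts. Values were used as deposited, as log2(TPM + 0.5). A total of 53810 genes that reached 1 TPM in 47% or more of the libraries were fitted with limma 3.58.1 in R 4.3.3 as 16 group means, with a mean-variance trend and empirical Bayes moderation. Benjamini-Hochberg adjusted p-values, over all genes in the fit, under 0.01 were called. Tables were made with Python 3.11.15 (pandas 2.3.3, numpy 2.4.6), data.table (version 1.17.8) and matplotlib 3.10.9. The fit was tested on simulated data.

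Same-numbered libraries deviated together (r over 0.1 in all 3 pairs) in 5 of 16 pairs of groups, among them shaded and control Solar libraries of the optimal sowing date at 14 DAF, but not those of the late one. The fit without a block was kept, and the blocked count is given where it differs by over 1.5 times.

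TPM keep no read number, so no count test or counting interval is given. The members and lists were chosen with earlier results of these data known. Named are the 10 members with the lowest shading difference in the rule, the 5 most abundant, the 5 lowest and 5 highest under shading in late-sown Solar, the 3 largest called sowing differences in each direction, the genes at the limit of the rule, the members in a gene list, and 15 other annotated members. Functions come from readable supplementary tables of the study, which cover 5779 genes, and 0 members had an entry in the RefSeq genes given, so no sequence is shown. Alternatives were another pseudocount, other filters, 3 scalings, no trend, a replicate block, a threshold of 0.05, only the genotype's own libraries, and leaving out each library. Leaving out Solar libraries under a 50% share, and both late-sown Lumen libraries numbered 1 at 14 DAF, was added after the data had been seen.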

Additional observations from a re-analysis of the deposited data

Results flagged for a closer look

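In Solar with the optimal sowing date, the shading difference changed between 7 and 14 DAF in 18 of the 154 members tested, all downwards (limma, adjusted p under 0.01, interaction of time and S–S ratio), beside 0.453% of genes called lower. The median change was -2.79 and 151 of 154 lay below 0. At 7 DAF the shaded libraries numbered 1 and 3 held more of the members than control libraries, and at 14 DAF less. The count was 89 without control replicate 1 at 14 DAF, 50 without shading replicate 2 and 28 without control replicate 2 at 7 DAF, 4 without shading replicate 3 at 14 DAF, and 0 without any of control replicates 1 and 3 or shading replicates 1 and 3 at 7 DAF, or of control replicates 2 and 3 or shading replicate 1 at 14 DAF. All 6 libraries at 7 DAF and 2 of the control libraries at 14 DAF had a Solar share under 50%, and their part in the change was not tested.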

How the results depend on the processing

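Counts below are members called by limma at adjusted p under 0.01. For shading at 14 DAF in late-sown Solar, where 11 were called, 37 were called with no filter on low values, 38 with at least 5 TPM in 10% of libraries, 44 at adjusted p under 0.05, 0 from the 24 libraries of the genotype alone, and 31 without Solar libraries under a 50% share. For optimal-sown Solar, where 9 were called, the same settings gave 11, 14, 60, 0 and 0, the last with 1 control library left. At 7 DAF in late-sown Solar (2 called) 0 were called with a pseudocount of 1, 0 from 24 libraries and 5 without libraries under a 50% share, and in optimal-sown Solar 2 at adjusted p under 0.05. The change of the shading difference with time gave 1 call in late-sown Solar at 0.05 and 1 without low-share libraries, and in optimal-sown Solar 72 at 0.05 and 0 from 24 libraries. Late against optimal sowing at 7 DAF in Lumen gave 57 at 0.05. The sowing difference in the rise gave 1 with no filter, 2 with 5 TPM, 1 rescaled to one sum, 1 after quantile normalization, 3 at 0.05, 1 from 24 libraries and 2 without low-share libraries.

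Leaving out each library in turn gave 0 to 29 calls for shading at 14 DAF in late-sown and 0 to 83 in optimal-sown Solar, 0 to 3 and 0 to 12 at 7 DAF, 0 to 2 and 0 to 89 for the change with time, 102 to 126 and 77 to 132 for the rise, 116 to 129 and 27 to 36 for late sowing in Lumen at 14 and 7 DAF, 0 to 1 for the sowing difference in the rise, and 0 to 0 for that in the shading response. The rule kept 65 to 432 genes, 65 without Lumen shaded replicate 2 of the optimal and 432 without shaded replicate 1 of the late sowing date at 14 DAF, and 60 of the 65 were members. Among single genes, 4 uncalled ones changed sign under shading at 14 DAF in late-sown Solar: BnaA03g05030D and BnaA03g05050D ranged from -0.0081 to 0.6687 on the log2 scale, BnaAnng32150D from -0.1778 to 0.3365 (-0.1266 without shaded replicate 3), and BnaC05g47250D from -0.0758 to 0.5147 (-0.0364 without control replicate 2). The cause was not tested in any of these.

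With the replicate number as a block, 8 members were called in late-sown and 5 in optimal-sown Solar at 14 DAF, and 13 for the change with time in optimal-sown Solar. Of the counts with and without the block, the one that moved by over 1.5 times was that of optimal-sown Solar at 14 DAF, from 9 to 5. It is 1 effect per number over all 48 libraries, while same-numbered libraries correlated from -0.661 to 0.677 over 48 pairs, 29 of them over 0.1, and in all 3 pairs only for 5 of 16 pairs of groups. Whole-number TPM limit what can be said of genes under a few TPM.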
